A study of Mus musculus with 8 samples.

Results

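The signal transducers and activators of transcription (STATs) are described here through Stat2, Stat3, Stat4, Stat5a, Stat5b and Stat6, which were taken by gene symbol and make up 6 of the 23361 genes in the expression table. Expression was measured by RNA sequencing in Foxp3-RFP+ induced regulatory T cells (iTreg) that were sorted by surface Nrp-1 (neuropilin-1, a co-receptor used as a Treg marker) into an Nrp-1+ iTreg group (4 libraries) and an Nrp-1- iTreg group (4 libraries). Both groups came from wild-type mice with a red fluorescent reporter of Foxp3, the transcription factor that defines Treg. Naive CD4+ T cells (CD62L high, CD44 low) were cultured with anti-CD3/CD28 beads, IL-2 at 50 U/ml and TGF-β at 2 ng/ml, so that both groups had been exposed to the same cytokines, and viable CD4+ Foxp3-RFP+ cells were then sorted on Nrp-1. The labels give day 5 in one field and 3 days of culture in another, and the study's methods name another IL-2 concentration and library kit than the labels do. The libraries are labelled as biological replicates 1 to 4, but nothing in the labels says that they came from separate mice or cultures, so the p-values measure the spread between these libraries, which may be technical.

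STAT proteins wait in the cytoplasm and are phosphorylated by Janus kinases (JAKs) on activated cytokine receptors, after which they pair up, enter the nucleus and bind DNA. In CD4+ T cells each STAT is tied to certain cytokines: STAT4 to IL-12 and Th1 cells, STAT6 to IL-4 and Th2 cells, STAT3 to IL-6, IL-21 and Th17 cells, STAT5A and STAT5B to IL-2 and the upkeep of Foxp3 in Treg, and STAT2 to type I interferon. This signalling runs on phosphorylation, which RNA levels do not show.

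The libraries held roughly 15300000 to 23400000 fragments, as estimated from genes with very low values, and values are in FPKM, that is, fragments scaled to the length of the transcript and to the fragments mapped in the library. Nrp1 itself had 21.5 ± 0.709 FPKM in Nrp-1+ cells and 4.95 ± 0.262 FPKM in Nrp-1- cells (SD, n = 4 in each group). Short RNA genes took between 1.77% and 43.9% of the summed FPKM of a library (1.77% to 38.9% in Nrp-1+ cells, 4.45% to 43.9% in Nrp-1- cells). Of the 9 T cell and Treg markers tested, Foxp3 (115.8 against 108.8 FPKM), Il2ra, Ikzf2 (2.56 against 1.86 FPKM) and Nrp1 were higher in Nrp-1+ cells, Cd3d (436.8 against 496.4 FPKM) and Ctla4 (143.6 against 160.0 FPKM) were lower, and 3 were not called (20.9% of all genes tested were higher and 20.0% lower). With quantile normalization Foxp3 (limma adjusted p = 0.0992), Cd3d (0.304) and Ctla4 (0.0518) lost their calls. Their log2 fold changes were then 0.080, -0.15 and -0.17, against 0.089, -0.18 and -0.16 as deposited. Foxp3 also lost its call with a correction for GC content and length (0.109) and without Nrp-1+ replicate 2, Nrp-1- replicate 2 or Nrp-1- replicate 3 (0.0525 to 0.0623). Markers of other cell types were low. Of the CD8 T cell markers, Cd8a stayed at 0.0571 and 0.0474 FPKM on average while Cd8b1 was lower in Nrp-1+ cells (7.86 against 10.0 FPKM), and the sum of the 2 ran from 7.10 to 8.78 and from 9.33 to 11.3 FPKM. The 5 B cell markers summed to between 5.21 and 5.91 FPKM in Nrp-1+ cells and between 4.01 and 5.80 FPKM in Nrp-1- cells, with Ms4a1 and Pax5 listed at 0 in all 8 libraries. The 7 myeloid markers summed to between 6.47 and 7.22 FPKM in Nrp-1+ cells and between 5.41 and 6.24 FPKM in Nrp-1- cells, nearly all of it Itgam. Itgam was higher in Nrp-1+ cells (6.70 against 5.56 FPKM, limma adjusted p = 0.00136) and kept that call under every alternative. The 4 NK cell markers stayed at or below 1.16 FPKM. The part of other cell types in the results was not tested. In bulk samples, fewer cells of a type and less RNA per cell cannot be told apart.

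Stat3, Stat4, Stat5b and Stat6 were lower in the Nrp-1+ cells, while Stat2 and Stat5a did not pass the test and no STAT gene was higher. Stat4 was 18.3% lower, and the other 3 were between 5.65% and 7.62% lower. In the limma fit over all genes (adjusted p under 0.05), 4 of the 6 STAT genes were called lower and 0 higher, where 20.0% of the 10467 genes tested were called lower, 20.9% higher and 40.9% in either direction. In the same 4 genes every Nrp-1+ library lay below every Nrp-1- library, which held for 19.3% of all genes tested, and 39.5% were separated in either direction. All 6 passed the filter on low values (mean FPKM 1 or more). The median log2 fold change was -0.095 over the 6 STAT genes and -0.016 over all genes tested. Among the 4282 genes called, the median size of the change was 0.22 on the log2 scale, which Stat4 exceeded and Stat3, Stat5b and Stat6 did not reach. Ranked by size among those genes, Stat4 stood at 1455, Stat3 at 3889, Stat6 at 3968 and Stat5b at 4224. Of all genes called, 51.1% were higher in Nrp-1+ cells, a split that became 73.9% when libraries were rescaled to their sum without short RNA genes and 40.0% after correcting for GC content and length of the transcripts. Under that rescaling only Stat4 of the 6 was still called lower, and Stat2 and Stat5a, not called, took positive signs. The median of all genes rose by 0.057 with it, and relative to that median they stood at -0.0070 and -0.023, against -0.0081 and -0.027 as deposited.

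**Figure D1:**
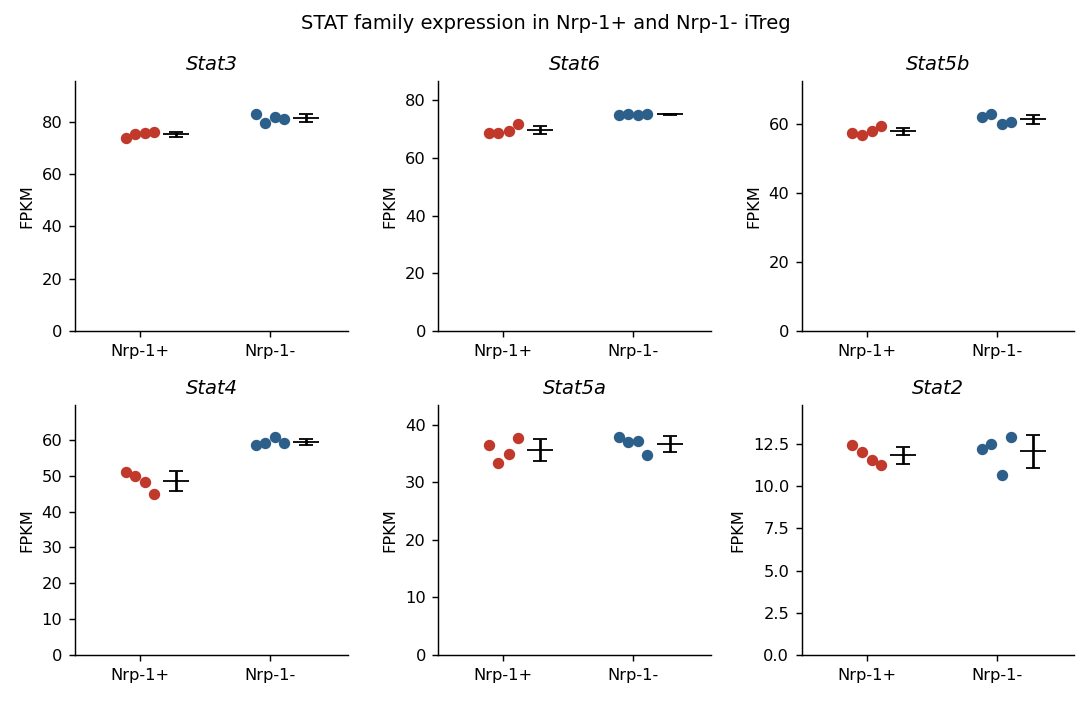
Expression of the 6 STAT genes in FPKM on the vertical axis, with each of the 4 Nrp-1+ and 4 Nrp-1- libraries as a point and the group mean ± SD as the bar beside them. The groups are separated in Stat3, Stat4, Stat5b and Stat6 and overlap in Stat2 and Stat5a, and Stat2 lies far below the rest at 10.7 to 12.9 FPKM.

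Stat4, which carries the IL-12 signal in Th1 cells, showed the largest difference of the 6. It lies on chr1:51987106-52107189 (GRCm38.p6, plus strand). The Nrp-1+ replicates 1 to 4 measured 51.1, 50.0, 48.3 and 44.8 FPKM, and the Nrp-1- replicates measured 58.7, 59.2, 60.8 and 59.1 FPKM. The lowest Nrp-1- library was thus above the highest Nrp-1+ library, and the Nrp-1+ libraries were the more scattered. Group means were 48.6 ± 2.76 FPKM in Nrp-1+ cells and 59.5 ± 0.894 FPKM in Nrp-1- cells (SD, n = 4 each), a difference of -10.9 FPKM. The log2 fold change was -0.29 with a standard error of 0.039 (95% interval from -0.38 to -0.20, limma adjusted p = 0.000674), and the exact two-sided permutation test gave p = 0.0286, the smallest p that 4 libraries against 4 allow. Rescaling without short RNA genes left it at -0.23 (limma adjusted p = 0.00211). In the annotation, 1033 of the 3872 exonic bases of Stat4 also belong to another annotated gene on the same strand, and reads there could be counted for either. The 208 bases before the gene's 5′ end are shown because Stat4 changed most. They hold none of the STAT or interferon motifs searched.

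Stat4, chr1:51986898-51987105, plus strand: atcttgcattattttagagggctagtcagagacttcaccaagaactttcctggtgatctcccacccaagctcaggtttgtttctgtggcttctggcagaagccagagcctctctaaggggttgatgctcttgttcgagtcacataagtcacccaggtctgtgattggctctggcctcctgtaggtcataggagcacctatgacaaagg

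Another annotated start of Stat4 lies 21134 bases inside the gene, and the 250 bases before it hold 1 interferon-type motif, shown in capitals at chr1:52008143-52008152, 97 bases before that start.

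Stat4, inner start, chr1:52007990-52008239, plus strand: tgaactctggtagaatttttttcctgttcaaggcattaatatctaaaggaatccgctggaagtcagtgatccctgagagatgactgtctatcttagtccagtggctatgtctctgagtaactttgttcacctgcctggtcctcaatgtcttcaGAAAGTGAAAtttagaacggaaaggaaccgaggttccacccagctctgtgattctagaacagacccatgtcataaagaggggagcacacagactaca

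Stat3 transmits IL-6, IL-10 and IL-21 signals, and had the highest level of the 6. It lies on chr11:100886806-100939594 on the minus strand. Its values were 73.6, 75.5, 75.8 and 75.9 FPKM in the Nrp-1+ replicates 1 to 4, against 83.1, 79.5, 82.0 and 81.1 FPKM in the Nrp-1- libraries. Both groups were tight and did not overlap. The means of 75.2 ± 1.06 and 81.4 ± 1.53 FPKM (SD, n = 4 each) gave a log2 fold change of -0.11 (standard error 0.021, limma adjusted p = 0.00329, exact permutation p = 0.0286). After rescaling without short RNA genes it was -0.051, with a limma adjusted p of 0.302. The 196 bases before its 5′ end are printed as those of the most abundant member, and they too have none of the motifs searched.

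Stat3, chr11:100939595-100939790, minus strand: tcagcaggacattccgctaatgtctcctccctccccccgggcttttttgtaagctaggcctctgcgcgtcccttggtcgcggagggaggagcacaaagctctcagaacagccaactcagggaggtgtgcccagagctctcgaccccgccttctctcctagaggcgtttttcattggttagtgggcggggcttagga

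Stat6 acts downstream of the IL-4 receptor and followed Stat3 closely in level and in change. It is encoded on chr10:127642955-127660987 (plus strand). Nrp-1+ cells had 68.8, 68.4, 69.4 and 71.6 FPKM in replicates 1 to 4, and Nrp-1- cells had 74.7, 75.3, 74.9 and 75.3 FPKM. The Nrp-1- libraries varied by less than 1 FPKM, and none of the Nrp-1+ libraries reached them. From means of 69.6 ± 1.43 and 75.0 ± 0.304 FPKM (SD, n = 4 each), Stat6 was 7.30% lower in Nrp-1+ cells, with a log2 fold change of -0.11 (standard error 0.020, limma adjusted p = 0.00313, exact permutation p = 0.0286). Rescaling without short RNA genes gave -0.046 (limma adjusted p = 0.269). The 219 bases before its 5′ end are set beside those of Stat3 because both genes moved by nearly the same amount, and they hold none of the motifs searched.

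Stat6, chr10:127642736-127642954, plus strand: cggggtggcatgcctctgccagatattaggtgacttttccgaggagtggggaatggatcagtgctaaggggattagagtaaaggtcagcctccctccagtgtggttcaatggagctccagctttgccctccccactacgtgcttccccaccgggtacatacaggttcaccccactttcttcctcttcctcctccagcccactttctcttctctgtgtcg

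Stat5a and Stat5b encode close relatives that relay the IL-2 signal, and they are neighbours on chromosome 11. Stat5b occupies chr11:100780731-100859004 on the minus strand and Stat5a occupies chr11:100859351-100885169 on the plus strand, 346 bases away, so that the genes point away from each other. The near end of Stat3 lies 1636 bases beyond Stat5a. In GENCODE M21, 72 exonic bases of Stat3 overlap a Stat5a transcript on the opposite strand, and Stat6 shares 40 with Nab2 in the same way. Stat5b measured 57.4, 56.9, 58.0 and 59.3 FPKM in Nrp-1+ cells and 61.8, 62.9, 60.0 and 60.6 FPKM in Nrp-1- cells (replicates 1 to 4). The groups did not overlap, but Nrp-1+ replicate 4 and Nrp-1- replicate 3 were close. With means of 57.9 ± 1.03 and 61.3 ± 1.29 FPKM (SD, n = 4 each), its log2 fold change was -0.082 (standard error 0.023, limma adjusted p = 0.0202, exact permutation p = 0.0286). This call was the weakest of the 4. It was lost without Nrp-1+ replicate 1 (limma adjusted p = 0.0501), without Nrp-1+ replicate 2 (limma adjusted p = 0.0507), with quantile normalization (0.0509), when the replicate number entered the fit as a block (0.0757), and after rescaling without short RNA genes, where the log2 fold change was -0.021 (limma adjusted p = 0.681).

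Stat5a had 36.5, 33.3, 34.9 and 37.6 FPKM in Nrp-1+ cells and 37.8, 36.9, 37.2 and 34.7 FPKM in Nrp-1- cells (replicates 1 to 4). The groups overlapped widely, since Nrp-1+ replicate 4 exceeded 3 of the Nrp-1- libraries. Group means were 35.6 ± 1.89 and 36.6 ± 1.35 FPKM (SD, n = 4 each), and the log2 fold change of -0.043 (95% interval from -0.14 to 0.055) did not pass the test (limma adjusted p = 0.456, exact permutation p = 0.4). The interval includes the change of Stat5b, and the ratio of Stat5a to Stat5b was not shown to differ between the groups (log2 ratio -0.70 ± 0.059 against -0.74 ± 0.052, exact permutation p = 0.343). Reads can be shared between them: 10.8% of the 50-base words of the longest Stat5a transcript occur in Stat5b and 11.8% of those of Stat5b occur in Stat5a, whereas no other pair of the 6 shares any. Summed over both genes, STAT5 ran from 90.1 to 96.8 FPKM in Nrp-1+ cells and from 95.3 to 99.9 FPKM in Nrp-1- cells (exact permutation p = 0.0571), so that the groups overlapped. The longest run of bases shared by the windows around their annotated starts is printed here because it shows the kinship of the pair. It begins at position -32 from the Stat5a start of the window chr11:100860234-100860533 and at position -23 from the Stat5b start of the window chr11:100822521-100822820.

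Stretch shared by Stat5a and Stat5b, 16 bases: aggaaatcgctgctct

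Stat2, the partner of IRF9 in the interferon-activated complex ISGF3, was the least abundant of the 6 and showed no detectable difference. It lies on chr10:128270498-128292853 (plus strand). The Nrp-1+ libraries had 12.4, 12.0, 11.6 and 11.3 FPKM, and the Nrp-1- libraries had 12.2, 12.5, 10.7 and 12.9 FPKM (replicates 1 to 4). Nrp-1- replicate 3 was the lowest of all 8 and Nrp-1- replicate 4 the highest, so the Nrp-1+ values lay inside the Nrp-1- range. Means were 11.8 ± 0.516 and 12.1 ± 0.970 FPKM (SD, n = 4 each), with a log2 fold change of -0.024 and a 95% interval from -0.16 to 0.11 (limma adjusted p = 0.771, exact permutation p = 0.657). A fall of the size seen in Stat3 or Stat6 lies inside that interval, whereas that of Stat4 does not. Its upstream sequence is shown because it was the one window of the 9 with motifs of both kinds, in capitals: the first is the reverse complement of the interferon motif at chr10:128270276-128270285, the other the longer palindrome at chr10:128270288-128270297.

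Stat2, chr10:128270248-128270497, plus strand: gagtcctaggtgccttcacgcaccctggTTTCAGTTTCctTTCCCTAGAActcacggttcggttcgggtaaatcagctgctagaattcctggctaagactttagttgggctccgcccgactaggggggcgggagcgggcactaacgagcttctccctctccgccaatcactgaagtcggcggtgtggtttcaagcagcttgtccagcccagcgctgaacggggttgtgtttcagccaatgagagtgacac

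The motifs were searched on both strands in windows from 250 bases before to 50 bases after each annotated start (RefSeq, GRCm38.p6), where all 6 STAT genes matched, with 9 windows between them. These starts are not always the outer end of the gene. The start lies at that end in Stat2 and 42, 54 and 31 bases inside the gene in Stat4 (its first start), Stat3 and Stat6. In Stat5a the starts lie 305 and 1133 bases inside, and in Stat5b 8423 and 36434 bases inside, so the sequence outside these 2 genes was not searched. The palindrome TTCNNNGAA, to which most STAT dimers bind, was found in 0 of these 9 windows and in 8.30% of all 32851 windows. Its longer form TTCNNNNGAA, preferred by STAT6, was found in 1 of the 9 (Stat2) and in 6.95% of all windows. The interferon-type motif GAAANNGAAA was found in 2 of the 9 (Stat2 and Stat4) and in 3.44% of all windows. A match is a string of letters and not a measured binding site. For comparison, GAAANNGAAA was present in 6 of 10 windows of the STAT2 target genes listed further on.

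The order of the levels was the same in both groups: Stat3, Stat6, Stat5b, Stat4, Stat5a and Stat2. FPKM are per transcript length, so these levels can be set side by side. Neighbours in this order did not overlap between their 4 libraries, except for Stat5b and Stat4 in Nrp-1- cells, where Stat4 reached 60.8 FPKM and Stat5b went down to 60.0 FPKM. In Nrp-1+ cells the same 2 genes were well apart, with Stat4 at 51.1 FPKM at most and Stat5b at 56.9 FPKM at least. Among the 10467 genes tested, Stat3 stood at rank 1225 by mean level and Stat2 at rank 5874, the 88.3 and 43.9 percentiles. Summed over the 6 genes, STAT expression ran from 296.1 to 300.5 FPKM in Nrp-1+ cells and from 323.7 to 328.2 FPKM in Nrp-1- cells. This separation is of FPKM as deposited and depends on how the libraries are scaled. The sum was not compared after rescaling without short RNA genes. Stat2 also carried the most counting error, with roughly 719 to 1252 fragments per library against 7588 to 11734 for Stat3. That makes a counting error of about 3.12% for Stat2 and 1.04% for Stat3, from approximate fragment numbers. The spread among replicates of Stat2 was larger than that, with a coefficient of variation of 4.36% in Nrp-1+ cells and 8.05% in Nrp-1- cells. For Stat4 it was 5.69% in Nrp-1+ cells, against a counting error of 1.78%, and 1.50% in Nrp-1- cells.

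Relative to Stat3 and Stat6, Stat4 was lower in every Nrp-1+ library than in any Nrp-1- library. With so few libraries this could not pass the adjusted threshold. A ratio of 2 genes within a library does not depend on how the library was scaled, and 5 such ratios were compared. The ratio of Stat3 to Stat4 was 1.55 in Nrp-1+ cells and 1.37 in Nrp-1- cells, that is, a log2 ratio of 0.63 ± 0.099 against 0.45 ± 0.034 (SD, n = 4 each). Stat4 to Stat6 was 0.699 against 0.792, a log2 ratio of -0.52 ± 0.11 against -0.34 ± 0.022. In both ratios all 4 libraries of one group lay apart from all 4 of the other, and the exact permutation test gave p = 0.0286 for each, the smallest possible, which became 0.0714 after Benjamini-Hochberg adjustment over the 5 ratios. With only these 2 ratios at the smallest p, the adjusted value could not be lower, whatever the size of the differences. With Nrp-1+ replicate 4, the library with the lowest Stat4, left out, the differences of the log2 ratios were 0.14 and -0.13 (exact permutation p = 0.0286 for both), and leaving out any of the Nrp-1- libraries gave p = 0.0571. Stat3 to Stat6 was nearly the same in both groups (0.11 ± 0.026 against 0.12 ± 0.032 in log2, exact permutation p = 0.83). The ratio of Stat3 to the summed Stat5a and Stat5b was -0.31 ± 0.047 against -0.27 ± 0.043 in log2 (exact permutation p = 0.2), so a difference between the groups in this balance was not detected. As a share of the summed FPKM of the 6 genes, Stat4 made up 16.3% ± 0.973 in Nrp-1+ cells and 18.2% ± 0.323 in Nrp-1- cells (exact permutation p = 0.0286, adjusted over 6 shares 0.171), while Stat3 made up 25.2% and 25.0% and Stat6 made up 23.3% and 23.0%. A single share at the smallest p could not pass that adjustment either.

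**Figure D2:**
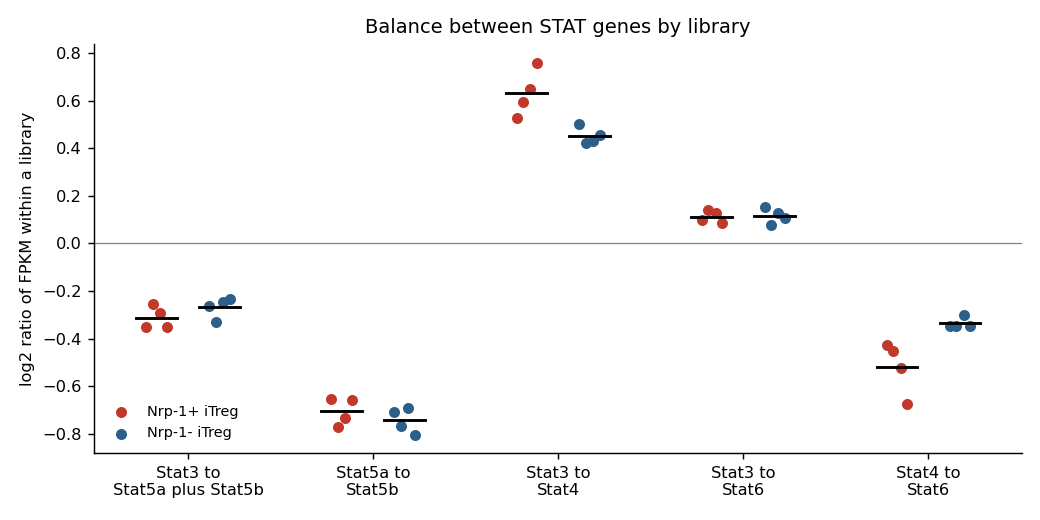
Log2 ratios of FPKM between STAT genes within each library, with 4 points per group and the group mean as a line. The groups are apart in Stat3 to Stat4 and in Stat4 to Stat6, with the Nrp-1+ libraries more spread, and overlap in the other 3 ratios.

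Within Nrp-1+ cells, replicate 4 had the lowest Stat4 and Stat2 of the group and the highest Stat3, Stat5a, Stat5b and Stat6. Across the 8 libraries, the genes whose log2 values followed each member most closely are given as a description over 8134 genes (mean FPKM 5 or more), and the 8 points share the difference between the groups. For Stat4 these were Clec2d (Pearson r = 0.991), Ddx5 (0.990) and Bcl7b (0.990), and for Stat3 they were Add1 (0.991), Gosr2 (0.991) and Tgfbr2 (0.989), the last being the ligand-binding TGF-β receptor. Stat6 went with Sigirr (0.991), Rnf114 (0.989) and Mapk8ip3 (0.989), and Stat5b with Prr7 (0.983), Gmip (0.982) and Atp10d (0.981). For Stat5a the closest were Zfp598 (0.948), Gtf2h3 (0.929) and Mob3a (0.903), and for Stat2 they were Prpsap2 (0.898), Polr2i (0.888) and Ccdc137 (0.880). More than 0.9 was reached by 573 genes for Stat6 and by 3 genes for Stat5a.

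Genes around the STATs were followed in 12 lists of kinases, receptors, feedback regulators and target genes, which hold 94 genes when each is counted once. Of the 72 that passed the filter, 12 were higher and 19 were lower in Nrp-1+ cells, so that 43.1% were called, near the 40.9% of all genes tested, and their median log2 fold change was -0.010 against -0.016 over all genes. After rescaling without short RNA genes, 15 were higher and 8 lower, whereas the correction for GC content and length gave 10 higher and 27 lower.

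**Figure D3:**
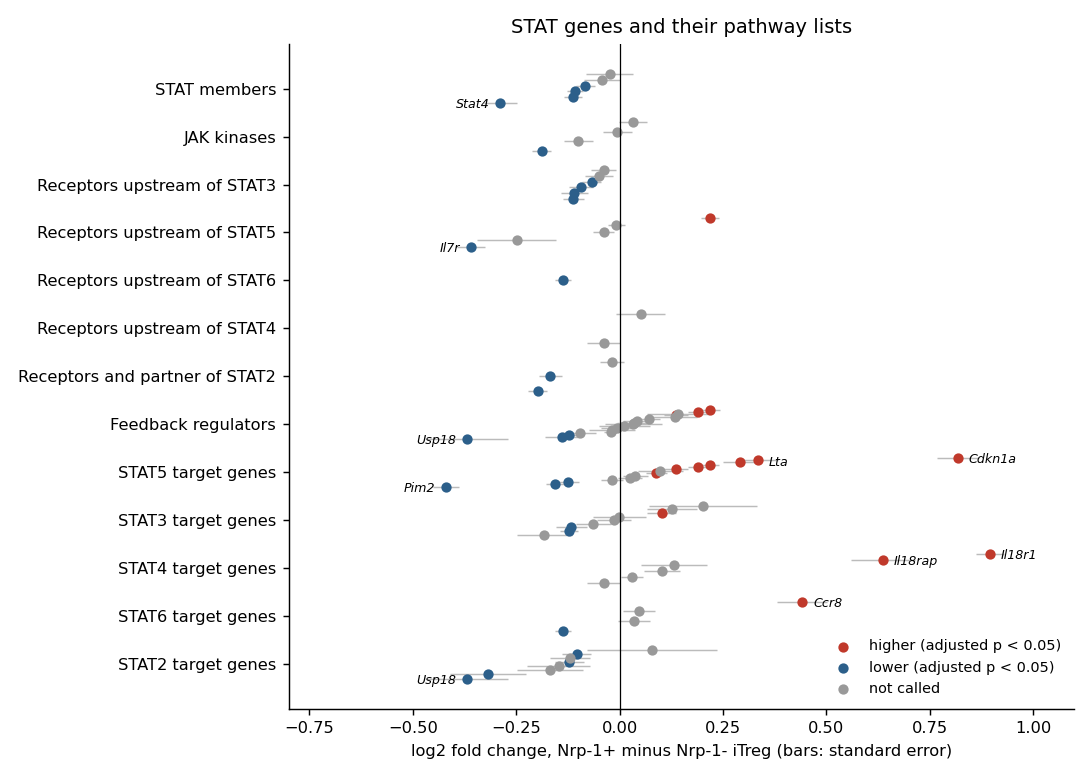
Log2 fold change between the Nrp-1+ and Nrp-1- cells on the horizontal axis for the STAT genes and each gene of the 12 lists that passed the filter, with bars for the standard error and colours for genes called higher, called lower or not called. The STAT genes, the receptors upstream of STAT3 and the receptors and partner of STAT2 lie to the left of 0, whereas Il18r1, Cdkn1a and Il18rap lie farthest to the right.

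Of the 4 JAK kinases, Jak1 was lower and the other 3 did not pass the test (40.9% of all genes tested were called). Jak1, the kinase shared by the receptors for IL-2, IL-4, IL-6 and interferon, ran from 172.6 to 181.1 FPKM in Nrp-1+ cells and from 198.9 to 206.7 FPKM in Nrp-1- cells. That is 12.3% lower without overlap (log2 fold change -0.19, limma adjusted p = 0.000329). Jak2 averaged 42.9 and 43.0 FPKM, Jak3, the partner of the common γ chain, averaged 72.2 and 70.5 FPKM, and Tyk2, which serves the IL-12 and interferon receptors, averaged 13.5 and 14.5 FPKM (limma adjusted p = 0.0518). Tyk2 was near the threshold and passed it without Nrp-1+ replicate 4 (limma adjusted p = 0.0453) or without Nrp-1- replicate 2 (0.0187), and also with the filter at 5 FPKM (0.0454), quantile normalization (0.0292), array weights (0.0418) and the correction for GC content and length, without (0.0113) and with (0.0412) the replicate number as a block. Jak1 lost its call with quantile normalization (limma adjusted p = 0.0623), where its log2 fold change was -0.16 against -0.19 as deposited.

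Receptors differed in direction. Among the receptors that signal through STAT3, 4 of the 6 tested were lower and none was higher, where 20.0% of all genes tested were lower and 20.9% higher. Il6ra, the IL-6 receptor, averaged 90.0 FPKM in Nrp-1+ cells and 97.4 FPKM in Nrp-1- cells (log2 fold change -0.11, limma adjusted p = 0.00879). Its signalling partner Il6st averaged 34.7 and 37.1 FPKM (-0.093), the IL-10 receptor chain Il10rb 59.4 and 64.2 FPKM (-0.11), and Il21r 87.0 and 91.2 FPKM (-0.067). These 3 were weak calls (limma adjusted p from 0.0266 to 0.0475), and between 1 and 3 of the list stayed called with 1 library left out. Il10rb was lost without Nrp-1+ replicate 2 or 4 or Nrp-1- replicate 2 or 4 (limma adjusted p from 0.0571 to 0.0675), Il6st without Nrp-1+ replicate 2 or 3 or Nrp-1- replicate 1, 3 or 4 (0.0516 to 0.0801), and Il21r whenever a library other than Nrp-1- replicate 2 was left out (0.0602 to 0.109). Il21r was also lost with quantile normalization (0.216), no variance trend (0.0739), median-of-ratios size factors (0.0680) and a pseudocount of 0.1 (0.0502), and Il10rb with quantile normalization (0.0787). All 4 were lost after rescaling without short RNA genes, where Il6ra was at -0.050 (limma adjusted p = 0.356).

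The receptors of STAT5 moved both ways, with 1 of the 5 tested higher and 1 lower (20.9% and 20.0% over all genes tested). Il2ra, the high-affinity chain of the IL-2 receptor and a Treg marker, ran from 258.9 to 270.8 FPKM in Nrp-1+ cells and from 222.7 to 230.7 FPKM in Nrp-1- cells, 16.5% higher (log2 fold change 0.22, limma adjusted p = 0.000108). Il7r, the IL-7 receptor of naive and memory T cells, ran from 117.1 to 127.8 FPKM and from 152.6 to 161.9 FPKM, 22.2% lower (-0.36, limma adjusted p = 6.84e-05). The chains Il2rb (550.9 and 565.8 FPKM) and Il2rg (393.6 and 395.6 FPKM), which carry the signal, did not pass the test, nor did Il15ra (2.63 and 3.34 FPKM, limma adjusted p = 0.0691). Il15ra passed without Nrp-1- replicate 3 (limma adjusted p = 0.00548), and the correction for GC content and length made Il15ra (0.0378) and Il2rb (0.0489) pass as lower, so that 3 of the list were then called lower. Il9r was below the filter at 1.16 and 0.254 FPKM, and in a fit without the filter its log2 fold change was 0.78 (limma adjusted p = 0.000788).

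Il4ra, the receptor upstream of STAT6, ran from 80.3 to 83.5 FPKM in Nrp-1+ cells and from 88.4 to 90.8 FPKM in Nrp-1- cells, 9.18% lower (log2 fold change -0.14, limma adjusted p = 0.000798), and was not called after rescaling without short RNA genes (-0.075, limma adjusted p = 0.0935). Il13ra1, the other receptor of that list, stayed near 0 at 0.0226 and 0.0214 FPKM. The IL-12 receptor chains upstream of STAT4 did not pass the test, with Il12rb1 at 4.77 and 4.58 FPKM and Il12rb2 at 11.7 and 12.0 FPKM. On the STAT2 side, 2 of 3 genes were lower (20.0% over all genes tested). Irf9, the DNA-binding partner of STAT2, averaged 53.3 ± 0.778 and 61.3 ± 1.43 FPKM (SD, n = 4 each), 13.0% lower (log2 fold change -0.20, limma adjusted p = 0.000255), whereas Stat2 itself was not called. The interferon receptor chain Ifnar1 averaged 31.3 and 35.3 FPKM (-0.17, limma adjusted p = 0.00184), and Ifnar2 averaged 70.7 and 71.6 FPKM (limma adjusted p = 0.651). Irf9 and Ifnar1 kept their calls after rescaling without short RNA genes (limma adjusted p = 0.0173 and 0.0400).

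Of the 17 feedback regulators, 3 were higher, 3 were lower and 11 were not called, so that 35.3% were called, against 40.9% of all genes tested. After rescaling without short RNA genes, 5 were higher, with Ptpn11 and Socs1 added, and Usp18 was the 1 that was lower. Ptpn1, a phosphatase that acts on JAK kinases, averaged 87.1 ± 2.01 and 74.7 ± 1.34 FPKM (log2 fold change 0.22, limma adjusted p = 0.000166). Socs2 averaged 138.5 ± 2.17 and 121.4 ± 3.40 FPKM (0.19, limma adjusted p = 0.000532). Cish, which restrains IL-2 signalling and like Socs2 is induced by STAT5, averaged 202.9 ± 7.22 and 184.5 ± 3.38 FPKM (0.14, limma adjusted p = 0.00634), and was not called with quantile normalization (0.161). The lower genes were Socs3, Socs5 and Usp18. Socs3, which is induced by STAT3 and limits IL-6 signalling, averaged 85.2 ± 1.75 and 92.8 ± 1.27 FPKM (-0.12, limma adjusted p = 0.00238). That rescaling left Socs3 uncalled (-0.061, limma adjusted p = 0.115), and Socs5 too (0.132). Socs5 averaged 4.25 and 4.78 FPKM (-0.14, limma adjusted p = 0.0290) and lost its call without Nrp-1+ replicate 1, 3 or 4 or Nrp-1- replicate 3 or 4 (limma adjusted p from 0.0554 to 0.0699) and with no filter on low values (0.0560). Usp18, an interferon-induced brake on the interferon receptor whose groups overlapped and which is named after its values were seen, averaged 2.93 and 4.09 FPKM.

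As an example of a STAT target with the palindrome TTCNNNGAA, the window of Socs3 holds TTCTTAGAA at chr11:117969512-117969520 (minus strand), 154 bases before an annotated start that lies 970 bases inside the gene.

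The list of known STAT5 target genes gave 7 higher, 3 lower and 4 not called of the 14 tested, with a median log2 fold change of 0.094. That is 71.4% called. Over all genes tested, 40.9% were called, 20.9% higher and 20.0% lower. Stat5a was not called and Stat5b was lower, and the list was chosen with earlier results of these data known. Beside Cish, Socs2 and Il2ra, the higher genes were Cdkn1a, Lta, Bcl2l1 and Foxp3. Cdkn1a, which encodes the cell cycle inhibitor p21 and also answers to p53 and TGF-β, ran from 59.5 to 64.2 FPKM in Nrp-1+ cells and from 31.1 to 36.3 FPKM in Nrp-1- cells, 78.2% higher (log2 fold change 0.82, limma adjusted p = 6.82e-06). Lta, the gene of lymphotoxin α, averaged 40.5 ± 2.94 and 31.8 ± 0.186 FPKM (0.34, limma adjusted p = 0.000844), and the survival gene Bcl2l1 averaged 24.3 ± 0.397 and 19.8 ± 1.19 FPKM (0.29, limma adjusted p = 0.000766). The lower genes were Pim2, Bcl2 and Ctla4. Pim2, a kinase that supports survival, ran from 37.0 to 40.4 FPKM and from 51.6 to 53.6 FPKM, 25.7% lower (-0.42, limma adjusted p = 2.17e-05). Named after their values were seen are Foxp3 at 115.8 and 108.8 FPKM (limma adjusted p = 0.0245), Bcl2 at 88.2 and 96.3 FPKM (0.0055) and Ctla4 at 143.6 and 160.0 FPKM (0.000938). Quantile normalization left 5 higher and 2 lower, without Cish, Foxp3 and Ctla4, Bcl2 lost its call after rescaling without short RNA genes (0.237), and Foxp3 was lost in 3 of the 8 fits with 1 library left out, as given above.

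STAT3 target genes gave 1 higher, 2 lower and 6 not called of 9 tested, so that 33.3% were called, against 40.9% of all genes tested. Junb, a transcription factor subunit, was the higher one at 220.2 and 205.1 FPKM (log2 fold change 0.10, limma adjusted p = 0.0455), and it lost its call in 6 of the 8 fits that left out 1 library, those without Nrp-1+ replicate 2, 3 or 4 or Nrp-1- replicate 1, 3 or 4 (limma adjusted p from 0.0511 to 0.110). Its call was also lost with quantile normalization (0.107), no filter (0.0642), no variance trend (0.0604) and the correction for GC content and length (0.0925). Beside Socs3, the lower gene was Batf (50.8 and 55.1 FPKM, overlapping groups, named after its values were seen), which lost its call in 6 of the 8 fits with 1 library left out, those without Nrp-1+ replicate 1, 2 or 3 or Nrp-1- replicate 1, 2 or 4 (limma adjusted p from 0.0601 to 0.0907), as well as with no filter (0.0548), quantile normalization (0.0545) and rescaling without short RNA genes (0.338). The Th17 cytokine Il17a was listed at 0 in all 8 libraries. With 1 library left out, between 1 and 2 of the STAT3 targets were called lower, whereas 0 were after rescaling without short RNA genes, 1 with no filter (Socs3) and 4 with the correction for GC content and length, which added Fosl2 and Hif1a.

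Of the 6 STAT4 targets tested, 2 were higher, 0 were lower and 4 were not called, so that 33.3% were called, against 40.9% of all genes tested. Il18r1, the IL-18 receptor, ran from 28.3 to 30.7 FPKM in Nrp-1+ cells and from 14.7 to 16.0 FPKM in Nrp-1- cells, 91.6% higher (log2 fold change 0.90, limma adjusted p = 4.41e-07). Its partner chain Il18rap averaged 2.28 ± 0.121 and 1.11 ± 0.193 FPKM (0.64, limma adjusted p = 0.000355). Of the STAT6 targets, Ccr8, a chemokine receptor of Th2 cells and Treg, was higher at 23.1 ± 1.92 against 16.7 ± 0.855 FPKM (0.44, limma adjusted p = 0.000644), Il4ra was lower as given above, and 2 of the 4 tested were not called, where 40.9% of all genes tested were called. The cytokine Il13 was listed at 0 in all 8 libraries. Il4, the cytokine that activates STAT6 and a gene below the filter that is named after its values were seen, was listed at 0 in all 4 Nrp-1+ libraries and ran from 0.121 to 0.448 FPKM in the Nrp-1- libraries. In the fit with no filter it was called lower (limma adjusted p = 0.0224), so that 2 of the list were lower.

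The STAT2 targets, which are interferon-induced genes, gave 0 higher, 4 lower and 4 not called of 8 tested (20.0% of all genes tested were lower), with a median log2 fold change of -0.13 against -0.016 over all genes. Ifit1 averaged 1.02 ± 0.147 and 1.52 ± 0.229 FPKM (log2 fold change -0.32, limma adjusted p = 0.0235) and Irf7, a regulator that amplifies interferon responses, averaged 9.04 ± 0.345 and 9.92 ± 0.286 FPKM (-0.12, limma adjusted p = 0.0229). Usp18 and Zbp1 were the other two, and Zbp1, named after its values were seen, averaged 94.7 and 101.8 FPKM with overlapping groups. Zbp1 was lost without Nrp-1+ replicate 1, 3 or 4 or Nrp-1- replicate 1, 2 or 3 (limma adjusted p from 0.0524 to 0.111) and under 6 other settings (0.0514 to 0.435). These calls were fragile: between 1 and 4 of the list were called with 1 library left out, 2 with quantile normalization, 2 after rescaling without short RNA genes and 5 with the correction for GC content and length. Ifit1 was lost without Nrp-1+ replicate 1 or 2 or Nrp-1- replicate 2 or 3 (limma adjusted p from 0.0504 to 0.0547) and with quantile normalization (0.0536), and Irf7 was lost without Nrp-1- replicate 2 (0.0557) or 4 (0.0611) and after rescaling without short RNA genes (-0.065, limma adjusted p = 0.156). At about 1 FPKM, the fold change of Ifit1 on the log2(FPKM + 1) scale understates the ratio of the means.

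**Figure D4:**
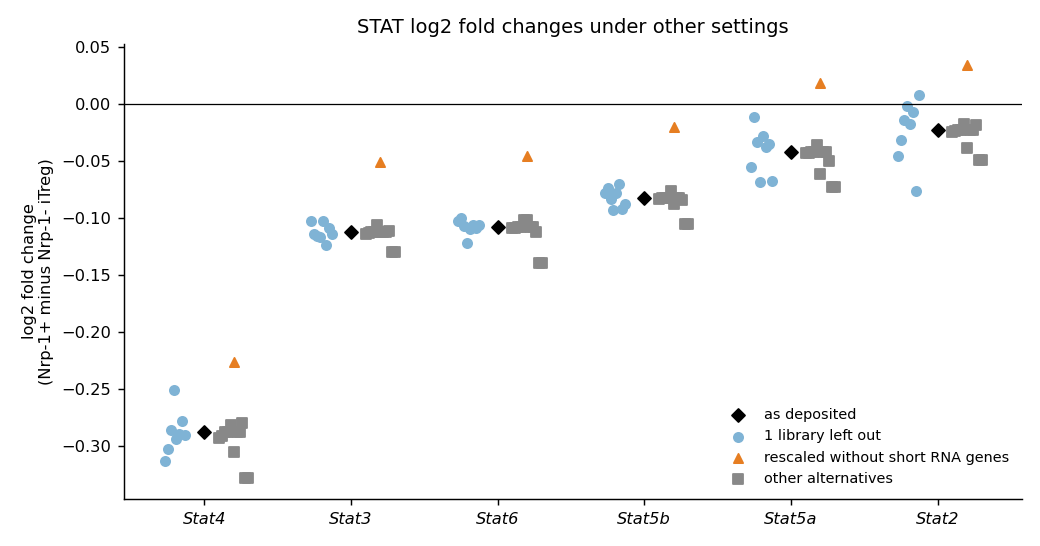
Log2 fold changes of the 6 STAT genes as deposited (diamonds), with 1 library left out (circles), after rescaling without short RNA genes (triangles) and under the other alternatives (squares). Stat4 stays below -0.20 throughout, Stat3 runs from -0.13 to -0.051 and Stat6 from -0.14 to -0.046, with the triangle as the smallest fall in both, and Stat2 and Stat5a reach both sides of 0.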

How the data were processed

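RNA was measured in 8 libraries, 4 of each group. Reads were handled by the authors in CLC Genomics Workbench 11.0.1, and the deposited FPKM, calculated by Cufflinks, give each gene 1 value in each library. The labels name the build GRCm38 (mm10). The test was limma 3.58.1 (eBayes with trend, R 4.3.3) on log2(FPKM + 1) with Benjamini-Hochberg adjustment, for the 10467 of 23361 genes whose mean FPKM was 1 or more. Folds of low genes are understated by the pseudocount of 1. On simulated data for 10467 genes with 200 changed, 100% of the 2-fold changes and 26% of the changes of 0.15 on the log2 scale were found, beside 6 false calls. In the data 4282 genes were called, far more than were changed in the simulation, so these numbers need not carry over. Ratios and single genes were compared by exact two-sided permutation tests (Python 3.11.15, scipy 1.17.1). Marker and pathway lists, like the members, were chosen with earlier results of these data known.

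Named are all 6 STAT genes, per pathway list up to 4 genes with the largest changes among those called without overlap, every gene of lists of at most 6 genes, Nrp1, and 3 genes most like each member. Sequences and gene loci are from RefSeq (GRCm38.p6), and transcript lengths and exon overlaps from GENCODE M21. The alternatives comprised other pseudocounts (0.1, 0.5), other filters (none, 5 FPKM), median-of-ratios and quantile scaling, rescaling without short RNA genes, the replicate number as a block, no trend, array weights, a correction for GC content and length, and each library left out. A sum of Stat5a and Stat5b was added after the data were examined.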

Additional observations from a re-analysis of the deposited data

Results flagged for a closer look

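In 106 groups of 4 libraries, the highest or lowest library was compared with its nearest neighbour in the group by Dixon's ratio, which chance passes in about 1 of 20 groups, or 5.3 here. 3 values passed. Jak3 was at 76.6 FPKM in Nrp-1+ replicate 4, while the other 3 libraries of the group ran from 70.4 to 71.2 FPKM. This is the library in which Stat4 was lowest and Stat3, Stat5a, Stat5b and Stat6 were highest within Nrp-1+ iTreg. The log2 ratio of Stat4 to Stat6 was -0.30 in Nrp-1- replicate 3, against -0.35 in each of the other 3 libraries, which lay very close together. The relative depth of Nrp-1+ replicate 3 was 1.22, against 0.994 to 1.00 in the rest of its group, and its STAT values were within the range of the other Nrp-1+ libraries.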

How the results depend on the processing

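Of the comparisons that answer the design, 327 values under alternatives stayed on their side of the threshold or within 1.5 times of a count. Another 19 passed the threshold as deposited and not under the alternative, 2 did the reverse, and 3 counts moved. None turned direction while passing. For ratios and shares the threshold was set on the exact p before adjustment, so for them this was not the loss or gain of a call. Among those not called, Stat2 changed sign under rescaling without short RNA genes (0.034) and without Nrp-1- replicate 4 (0.0073), Stat5a did under that rescaling (0.018), and the difference in the log2 ratio of Stat3 to Stat6 ran from -0.018 to 0.0077 with 1 library left out. Rescaling without short RNA genes had the greatest effect: genes called lower fell from 2093 to 971, STAT genes called lower from 4 to 1 and pathway genes called lower from 19 to 8, with log2 fold changes of -0.051 for Stat3 (limma adjusted p = 0.302), -0.021 for Stat5b (0.681) and -0.046 for Stat6 (0.269). It moved the median of all genes by 0.057, and relative to that median the changes were -0.27 for Stat4, -0.092 for Stat3, -0.087 for Stat6, -0.062 for Stat5b, -0.023 for Stat5a and -0.0070 for Stat2. Quantile normalization gave -0.088 for Stat5b (limma adjusted p = 0.0509), and the sum of Stat5a and Stat5b, added after the data were examined, gave -0.068 (exact permutation p = 0.0571). With 1 library left out, log2 fold changes ran from -0.31 to -0.25 for Stat4, from -0.12 to -0.10 for Stat3 and for Stat6, and from -0.094 to -0.070 for Stat5b, with 3 to 4 STAT genes called lower. The difference in the log2 ratio of Stat3 to Stat4 then ran from 0.14 to 0.22 and that of Stat4 to Stat6 from -0.22 to -0.13. The difference in the share of Stat5a ran from 0.468 to 0.892 percentage points (exact permutation p from 0.0286 to 0.229). That of Stat5b ran from 0.436 to 0.716 (exact permutation p from 0.0286 to 0.143). With no library left out they were 0.669 (exact permutation p = 0.114) and 0.563 (0.0857), before adjustment. The cause was not tested.

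The values gave no sign that the replicate numbers pair the libraries, but they cannot show that the libraries were unpaired. Deviations of same-numbered libraries correlated between -0.54 and 0.01, and between -0.11 and -0.038 without short RNA genes. With all genes tested, 0 libraries matched their own number best. With the replicate number as a block, Stat5b was at -0.082 (limma adjusted p = 0.0757), and the ratios of Stat3 to Stat4 (0.18), Stat4 to Stat6 (-0.18) and the share of Stat4 (-1.98 percentage points) had an exact p of 0.125, the smallest that 4 pairs allow. Il10rb, Il21r, Socs5, Junb, Ifit1 and Irf7 also lost their calls (limma adjusted p from 0.0670 to 0.122, and from 0.0506 to 0.121 with the correction for GC content and length added), Zbp1 lost its call without that correction (0.0514) and Cd8b1 with it (0.0613), and STAT2 targets called lower went from 4 to 1. Genes called were then 1931 higher and 1675 lower.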
